A study of Mus musculus with 15 samples.

Results

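Iron enters the body through the epithelium of the small intestine, and the 8 genes described here encode the main steps of that passage and its hormone. They are Slc40a1, Hamp, Tfrc, Slc11a2, Cybrd1, Heph, Fth1 and Ftl1, taken by name from the 19938 genes measured. The set was selected on earlier values of the same arrays, namely the lower levels of Slc40a1 and the higher levels of Hamp under RANKL. The differences of these 2 genes from control are therefore given as values without a test, and those of the other 6 genes were tested. The rule names genes and has no threshold. All 8 genes were measured, each by exactly 1 probe set that carries its symbol alone.

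Absorptive enterocytes reduce dietary iron at the brush border with the reductase of Cybrd1 and take it up through the transporter DMT1 of Slc11a2. Iron is stored in ferritin, built from the heavy chain of Fth1 and the light chain of Ftl1, or leaves the cell at its base through ferroportin, the product of Slc40a1, after which the ferroxidase hephaestin, made by Heph, oxidises it for transport on transferrin. Transferrin-bound iron enters cells through the transferrin receptor of Tfrc. Hepcidin, the peptide made from Hamp, is produced mainly by the liver, and it binds ferroportin and removes it from the cell surface.

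Epithelial cells were taken from the small intestine of wild-type BALB/c mice aged 10 weeks, after 10 min in 30 mM EDTA. RANKL, a cytokine of the TNF family that signals through RANK and drives the formation of antigen-sampling M cells, was injected into the peritoneum as a GST-RANKL fusion protein for up to 4 days. There were 5 groups of 3 arrays each, namely controls given no agent and mice after 1, 2, 3 or 4 days of RANKL. No group given GST or vehicle was used here, so what RANKL did and what the injections or GST did cannot be told apart.

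The deposited intensities had array medians from 147 to 167. RANKL day 1 replicate 2 stood apart, with a log2 interquartile range of 1.95 against 2.26 to 2.55 on the other arrays. The day 1 differences of the 8 genes, and of several other genes with a named day 1 result, are therefore given with and without it. Checked against markers, the summed intensity of 10 absorptive enterocyte markers lay between 61020 and 82060 on every array. Of 10 M cell markers, 8, 10, 9 and 8 were higher on days 1 to 4 and none was lower, and the day 1 count was 8 also without day 1 replicate 2. These markers are partly known from RANKL-treated epithelium and are not independent evidence. Xist read 11.93 to 12.37 on the log2 scale on every array and 3 genes of the Y chromosome read 4.88 to 5.50, a range taken here as the background. Other probe sets may have a higher background. Alb, a hepatocyte gene, read 5.95 to 6.14 on all arrays, so the range is a guide only. All levels below are quantile-normalized log2 intensities, and a level is compared only within a gene. Whether the 3 arrays of 1 group represent different mice is not stated, so the spread behind the p-values may be technical. In such bulk RNA, fewer cells of a type and less RNA per cell cannot be told apart.

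Under RANKL the exporter gene Slc40a1 was 3.40 to 4.29 times lower than control on the 4 days, the hormone gene Hamp was at least 4.52 and 5.46 times its control level on days 2 and 3, lower bounds because its control level reached the background, and the receptor gene Tfrc rose 2.19-fold, 3.09-fold and 2.24-fold on days 2, 3 and 4. Slc11a2 rose between days 1 and 4 but was not called against control on any single day. Cybrd1, Heph, Fth1 and Ftl1 were not called in any comparison. Of the 6 genes tested against control, 0, 1, 1 and 1 were called on days 1 to 4, each time Tfrc and each time higher. Over all genes 3.94%, 2.57%, 2.96% and 0.908% were called on these days, and 2%, 1.52%, 1.72% and 0.818% were called higher. The call on day 4 did not hold without control replicate 1 or RANKL day 4 replicate 2, each of which left 0 of 6 called, and a call of Slc11a2 brought the count to 2 without RANKL day 2 replicate 3. The median difference over the 6 genes was -0.01, 0.23, 0.14 and 0.12 on days 1 to 4, against medians over all genes of -0.01, -0.02, -0.01 and 0.01. The plot of levels by array shows the 8 genes on axes of equal span.

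**Figure D1:**
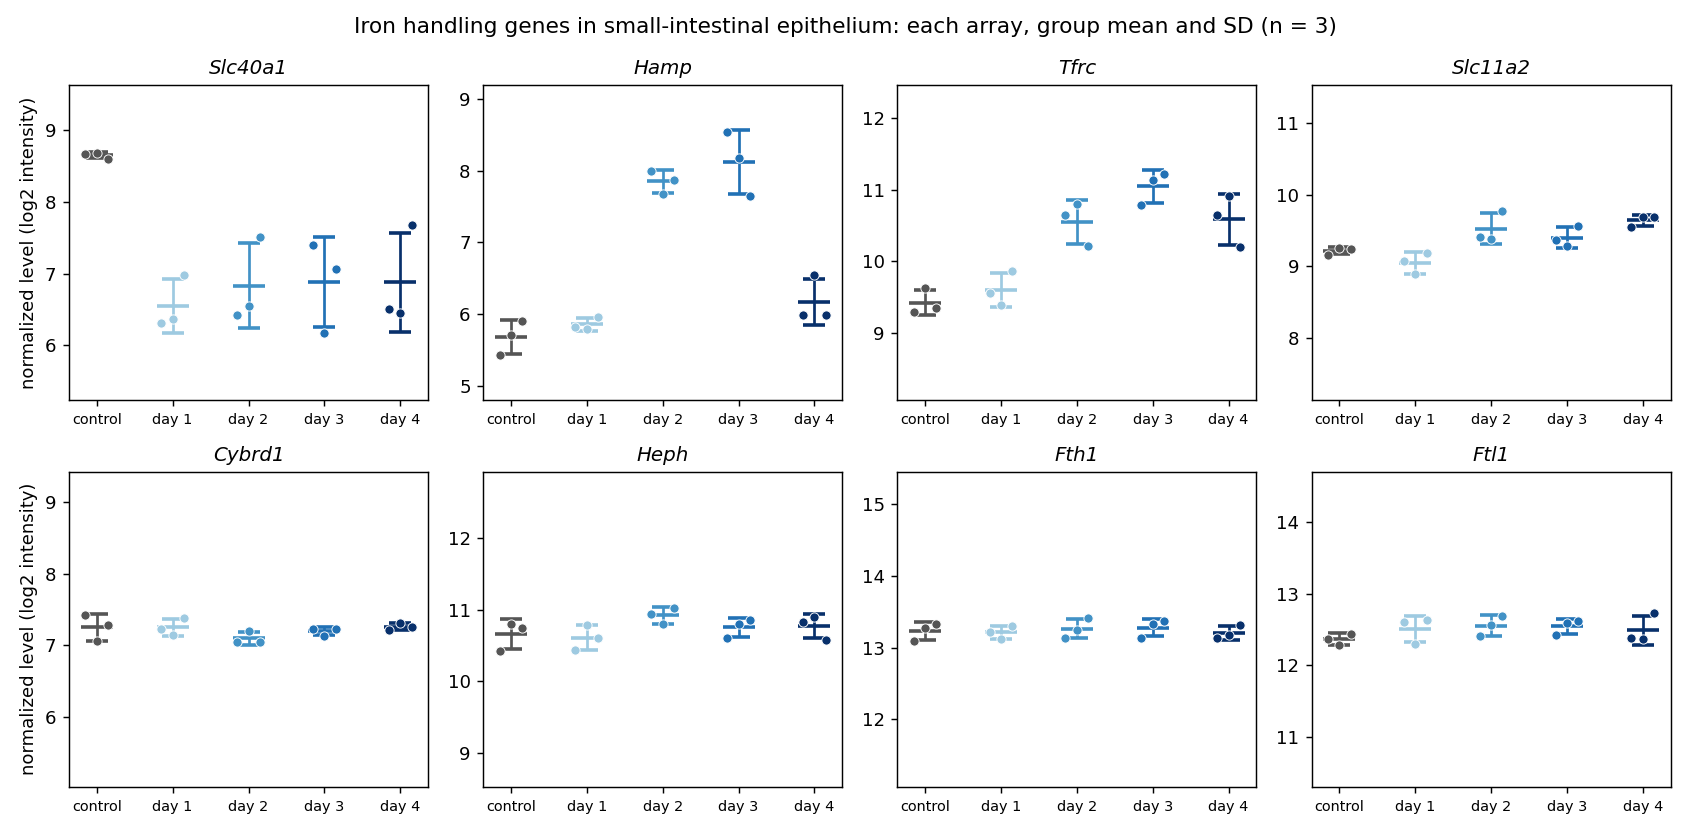
Normalized log2 intensity (vertical axis, equal span in every panel) of the 8 iron handling genes in control and on RANKL days 1 to 4 (horizontal axis). Points are arrays, and the bars are the group mean and SD of 3 arrays. The control arrays of Slc40a1 lie between 8.60 and 8.68 and all 12 RANKL arrays between 6.18 and 7.68.

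The exporter gene Slc40a1 (probe set 10354374) read 8.67, 8.68 and 8.60 on the 3 control arrays. On day 1 it read 6.31, 6.36 and 6.98, and on day 2 it read 6.43, 6.55 and 7.51. On day 3 the levels were 7.40, 6.18 and 7.07, and on day 4 they were 6.51, 6.46 and 7.68. Every RANKL array lay below every control array, a separation by which the gene was chosen and which 14.6%, 17.5%, 22.2% and 18.2% of all genes showed in either direction on days 1 to 4, and the highest of the RANKL arrays, day 4 replicate 3, was still 0.92 below the lowest control. Group means were 8.65 ± 0.04 (SD, n = 3) in control, 6.55 ± 0.37 on day 1, 6.83 ± 0.60 on day 2, 6.88 ± 0.63 on day 3 and 6.88 ± 0.69 on day 4. The control arrays lay close together, and the arrays of each RANKL day were spread more widely.

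The differences of Slc40a1 from control were -2.10, -1.82, -1.77 and -1.77 on days 1 to 4, each with an SE of 0.37. With day 1 replicate 2 left out the day 1 difference was -2.01. The SE rests on 1 spread shared by the 5 groups, although the SD ran from 0.04 in control to 0.69 on day 4. The background of this probe set is not known. Background in the low RANKL levels, down to 6.18, could make the differences too small and the days more alike. The 4 days are ordered day 1, 2, 4 and 3 from the lowest mean upward, and no neighbours in that order differed beyond their spread. Day 2 minus day 1 was 0.28 ± 0.37 (SE; limma adjusted p = 0.967; 95% confidence interval -0.52 to 1.08), and day 4 minus day 1 was 0.33 ± 0.37 (adjusted p = 0.692; -0.47 to 1.13). Without day 1 replicate 2 they were 0.19 and 0.24 (adjusted p = 0.991 and 0.853). A return toward the control level between days 1 and 4 was thus not detected, and the interval leaves room for a partial one.

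The pattern of Slc40a1 over the 15 arrays was set beside the 291 other genes whose group means spanned 1 or more (log2). Closest were Mettl7b (Pearson r = 0.949), the tight junction gene Cldn8 (0.938) and Tm7sf2 (0.880), which encodes a sterol reductase. Fgl2 (0.878) and the gasdermin gene Gsdmc2 (0.865) followed. The r values are a description and carry no p, since the arrays fall into a control cluster and a RANKL cluster. Their largest differences from control were -1.33 for Mettl7b, -1.27 for Cldn8, -1.05 for Tm7sf2, -1.01 for Fgl2 and -1.53 for Gsdmc2.

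Hamp, the hepcidin gene, is known from hepatocytes to respond to bone morphogenetic proteins through SMAD factors and to interleukin 6 through STAT3, and its promoter there carries a binding motif for each. Mice carry a near copy, Hamp2. The promoters are printed because the levels of these 2 genes differ in course while their promoters are nearly alike. Both are RefSeq sequence of build GRCm38.p6, from 250 bases to 1 base before the gene start, on the minus strand. The Hamp window is chr7:30944030-30944279 and the Hamp2 window is chr7:30924182-30924431. Capitals mark GGCGCC, the bone morphogenetic protein response motif, and TTCNNNGAA, the STAT motif. Promoters were matched by symbol for 5 of the 8 genes, and none was matched for Slc40a1, Slc11a2 and Heph.
Hamp: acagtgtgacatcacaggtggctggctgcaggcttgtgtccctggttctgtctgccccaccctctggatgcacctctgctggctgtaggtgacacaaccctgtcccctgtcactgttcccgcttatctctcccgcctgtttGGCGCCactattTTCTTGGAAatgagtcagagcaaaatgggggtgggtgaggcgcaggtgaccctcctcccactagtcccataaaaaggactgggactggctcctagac
Hamp2: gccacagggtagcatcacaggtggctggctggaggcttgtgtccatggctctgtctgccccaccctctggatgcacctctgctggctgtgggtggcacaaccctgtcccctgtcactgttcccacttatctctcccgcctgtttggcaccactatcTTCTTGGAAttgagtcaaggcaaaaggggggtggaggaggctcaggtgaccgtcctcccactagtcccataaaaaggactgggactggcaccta
Searched on both strands, the Hamp window held GGCGCC once, 109 bases before the start, and TTCTTGGAA once, 97 bases before it, without overlap. The Hamp2 window held TTCTTGGAA, 94 bases before the start, and no GGCGCC. Of 247 aligned bases 227 were identical, or 91.9%. Of 32851 promoter windows of 250 bases, 9.59% held GGCGCC and 7.02% held TTCNNNGAA. Among the other members, GGCGCC also lay in the window of Cybrd1 and in a Tfrc window that is not printed. A match describes the letters of the window and no more.

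Hamp (probe set 10562169) read 5.43, 5.70 and 5.90 in control and 5.82, 5.80 and 5.97 on day 1. On day 2 it read 8.0, 7.68 and 7.87, and on day 3 it read 8.54, 8.19 and 7.65. On day 4 it was back at 5.98, 6.55 and 5.99. The arrays of days 2 and 3 lay above all others. Control and day 1 overlapped, and the lowest day 4 array lay only 0.08 above the highest control. Of all genes 17.5%, 22.2% and 18.2% did not overlap with control on days 2, 3 and 4. The control and day 1 levels of Hamp reached the background range of 4.88 to 5.50 or lay little above it. A low level of Hamp there could therefore not be separated from background.

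The measured differences of Hamp from control were 0.18, 2.18, 2.45 and 0.49 on days 1 to 4 (SE 0.20). Control signal near background may narrow those of days 2 and 3, which also carry the sampling error of the arrays. With day 1 replicate 2 left out the day 1 difference was 0.22. Between days 1 and 2 Hamp rose by 1.99 ± 0.20 (SE; limma adjusted p = 0.000659), in a comparison in which 0.201% of genes were called. Day 3 minus day 2 was 0.27 ± 0.20 (adjusted p = 0.999), within the spread, and limma called 0% of genes between these days. Between days 3 and 4 Hamp fell by 1.96 ± 0.20 (adjusted p = 0.00412), when 0.015% of all genes were called, or 3 of 19938, and 13.4% did not overlap. That fall was not called in a fit of the 2 days alone (adjusted p = 0.224). Day 4 minus day 1 was 0.31 ± 0.20 (adjusted p = 0.471). Without day 1 replicate 2, day 2 minus day 1 was 1.96 (adjusted p = 0.00598) and day 4 minus day 1 was 0.28 (adjusted p = 0.658). The high levels of days 2 and 3 had drawn Hamp into the set and enter the comparisons with days 1 and 4, whose p-values are therefore not independent evidence.

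Hamp2 did not share this course. Its levels lay between 6.78 and 7.40 on all 15 arrays, and its differences from control were -0.05, -0.04, -0.09 and -0.13, each with an SE of 0.14 and none called (limma adjusted p from 0.823 to 0.970). With day 1 replicate 2 left out the day 1 difference was -0.20 (adjusted p = 0.452). The probes of near copies can read each other's RNA, and whether these probe sets do was not tested. The flat signal may also be background of the Hamp2 probe set, and the presence of Hamp2 RNA is not shown.

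Hamp was likewise set beside the 291 other genes with a span of 1 or more. Closest over the 15 arrays were Plekhs1 (Pearson r = 0.926), Wfdc17 (0.909), Psg18 (0.900), Wfdc18 (0.893) and C4bp (0.880), which encodes a complement regulator. As for Slc40a1, r carries no p. All 5 had their largest difference from control on day 2 or day 3, between 1.25 for Psg18 and 2.41 for Wfdc17, and differences of 0.35 to 0.79 on day 4.

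Transferrin receptor 1, the product of Tfrc, brings transferrin-bound iron into cells and is commonly high where cells divide. In human cells hypoxia-inducible factors are known to act on its promoter. The mouse promoter is printed because Tfrc is the only member called against control among the 6 tested. It is RefSeq sequence of build GRCm38.p6 on the plus strand, chr16:32608872-32609121, and capitals mark the core hypoxia response motifs ACGTG and GCGTG.
Tfrc: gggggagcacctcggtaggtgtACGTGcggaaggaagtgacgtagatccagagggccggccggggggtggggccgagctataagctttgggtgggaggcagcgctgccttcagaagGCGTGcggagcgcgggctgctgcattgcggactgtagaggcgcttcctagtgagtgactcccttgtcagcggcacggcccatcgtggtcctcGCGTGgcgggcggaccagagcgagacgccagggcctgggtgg
Searched on both strands, the window held ACGTG 228 bases and GCGTG 134 and 42 bases before the start, none overlapping. The other of the 2 Tfrc windows, chr16:32608646-32608895, held GCGTG on its minus strand 117 and 64 bases before its start. Over all windows 16.6% held ACGTG and 28.2% held GCGTG, so such matches are common. Among the other members, GCGTG also lay in the windows of Cybrd1, Fth1 and Ftl1.

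Tfrc (probe set 10435075) read 9.29, 9.63 and 9.35 in control and 9.55, 9.40 and 9.87 on day 1, and these groups overlapped. On day 2 it read 10.65, 10.79 and 10.21, on day 3 it read 10.79, 11.14 and 11.22, and on day 4 it read 10.65, 10.91 and 10.20. Over all genes 17.5%, 22.2% and 18.2% did not overlap with control on days 2, 3 and 4. Every Tfrc array of these days lay above every array of control and of day 1. The difference from control was 0.18 ± 0.20 on day 1 (SE; limma adjusted p = 0.780) and 0.29 without day 1 replicate 2. Tfrc rose by 1.13 ± 0.20 on day 2 (adjusted p = 0.00596), by 1.63 ± 0.20 on day 3 (adjusted p = 0.000400) and by 1.16 ± 0.20 on day 4 (adjusted p = 0.00977). All 3 arrays of each of these days showed the rise. The day 4 call ended without control replicate 1 (1.10, adjusted p = 0.0532) or RANKL day 4 replicate 2 (1.00, adjusted p = 0.0575). The moderated F test over the 4 days gave an adjusted p of 0.000753, in a test that called 3.6% of all genes.

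From the highest mean down, Tfrc ran day 3, day 4, day 2, day 1 and control. Day 4 minus day 3 was -0.46 ± 0.20 (SE; limma adjusted p = 0.818; confidence interval -0.88 to -0.04) and was not called. Day 3 minus day 2 was 0.50 ± 0.20 (adjusted p = 0.999; 0.08 to 0.92) and was not called either. Both intervals, which are not adjusted for the number of genes, lay wholly on the side of a higher day 3. The arrays of day 3 overlapped with those of both days, so whether day 3 was higher is not settled. Day 2 minus day 1 was 0.95 ± 0.20 (adjusted p = 0.0859), not called although the arrays did not overlap, as was so for 10% of all genes, and it was 0.84 (adjusted p = 0.193) without day 1 replicate 2. Day 4 exceeded day 1 by 0.98 ± 0.20 (adjusted p = 0.0258), where 1.32% of all genes were called. This last call ended without RANKL day 1 replicate 1 (0.96, adjusted p = 0.0781), day 1 replicate 2 (0.88, 0.0885), day 4 replicate 1 (0.95, 0.127) or day 4 replicate 2 (0.82, 0.0989), and in a fit of the 2 days alone (0.171). Cell cycle markers were read beside Tfrc. The sum of 9 such markers was 4203 to 4936 in control, 4546 to 6181 on day 1, 3892 to 6312 on day 2, 6053 to 7222 on day 3 and 4628 to 5180 on day 4. Of the 9, Mcm2 was called higher on day 1, none on day 2, Mcm2 and Rrm2 on day 3 and none on day 4. The day 1 difference of Mcm2 was 0.47, and 0.50 without day 1 replicate 2 (limma adjusted p = 0.0176 and 0.0227). The part of the cell cycle markers in the levels of Tfrc was not tested.

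**Figure D2:**
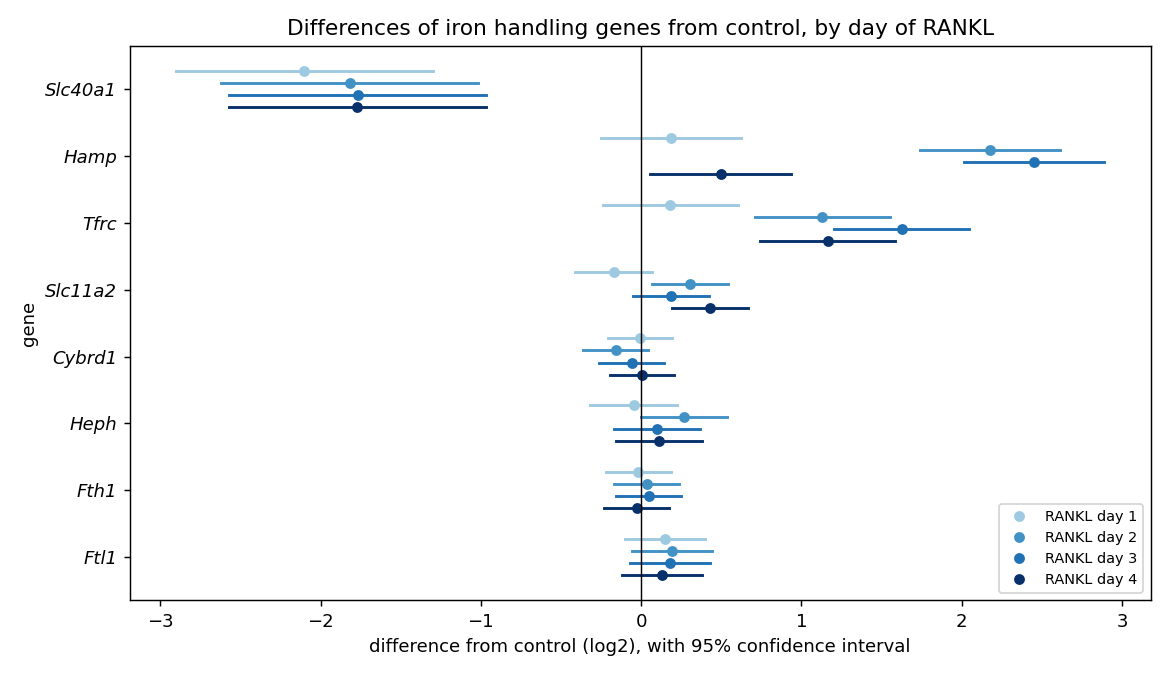
Difference from control on the log2 scale (horizontal axis) of each iron handling gene (vertical axis) on RANKL days 1 to 4, with 95% confidence intervals from the limma fit of 15 arrays. The points of Slc40a1 and Hamp, for which these intervals are a description and no test, run from -2.10 to -1.77 and from 0.18 to 2.45. The intervals of Tfrc lie above 0 on days 2 to 4, and those of Cybrd1, Heph, Fth1 and Ftl1 include 0 on every day.

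The brush border transporter gene Slc11a2 (probe set 10432573) changed by less. It read 9.16, 9.25 and 9.24 in control, 9.07, 8.89 and 9.18 on day 1, 9.41, 9.38 and 9.78 on day 2, 9.37, 9.28 and 9.56 on day 3 and 9.56, 9.69 and 9.69 on day 4. The arrays of days 2, 3 and 4 lay above all control arrays, while day 1 overlapped with control. Non-overlap with control was seen in 17.5%, 22.2% and 18.2% of all genes on days 2, 3 and 4. The differences from control were -0.17, 0.31, 0.18 and 0.43, each with an SE of 0.11, and none was called by limma (adjusted p = 0.555, 0.220, 0.470 and 0.120). Without day 1 replicate 2 the day 1 difference was -0.09. The day 4 difference was called without RANKL day 2 replicate 3 (adjusted p = 0.0464).

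Day 4 of Slc11a2 exceeded day 1 by 0.60 ± 0.11 (SE; limma adjusted p = 0.0165), with all 3 day 4 arrays above all 3 day 1 arrays, and 19.5% of all genes did not overlap between these days. This call ended without RANKL day 1 replicate 1 (0.61, adjusted p = 0.0503), day 1 replicate 2 (0.52, 0.0592), day 4 replicate 1 (0.64, 0.0642), day 4 replicate 2 (0.58, 0.0637) or day 4 replicate 3 (0.58, 0.0568), and in a fit of the 2 days alone (0.121). The F test over the 4 days called Slc11a2 (adjusted p = 0.0290), so that 2 of the 6 tested genes passed it, Tfrc being the other. That count was 1 without control replicate 1, 2 or 3, RANKL day 1 replicate 1 or RANKL day 4 replicate 1, 2 or 3, and also with the values as deposited or with median centring.

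Cybrd1 and Heph, which encode the ferric reductase and the ferroxidase of the absorptive route, were not called. Cybrd1 (probe set 10472757) had levels of 7.05 to 7.43 in control and of 7.04 to 7.38 over the 12 RANKL arrays. Its differences from control were -0.01, -0.16, -0.06 and 0.00404 (SE 0.09), with limma adjusted p from 0.588 to 0.994. The 95% confidence intervals over the 4 days ran from -0.36 at the lowest bound to 0.21 at the highest. Heph (probe set 10600857) lay between 10.42 and 10.81 in control and between 10.43 and 11.02 under RANKL. Its differences were -0.05, 0.26, 0.10 and 0.11 (SE 0.12), with limma adjusted p from 0.431 to 0.927, and its intervals reached from -0.32 to 0.53. With day 1 replicate 2 left out the day 1 differences were 0.05 for Cybrd1 and -0.14 for Heph. Groups overlapped with control on every day for both genes.

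The ferritin chains were likewise not called. Fth1 (probe set 10461402), the heavy chain with ferroxidase activity, lay between 13.10 and 13.32 in control and between 13.12 and 13.41 under RANKL. Its differences from control were -0.02, 0.03, 0.05 and -0.03 (SE 0.09), and its intervals reached from -0.23 to 0.25. Ftl1 (probe set 10447591), the light chain, lay between 12.28 and 12.44 in control and between 12.30 and 12.72 under RANKL, with differences of 0.15, 0.19, 0.18 and 0.13 (SE 0.12) and intervals from -0.12 to 0.44. Limma adjusted p ran from 0.874 to 0.965 for Fth1 and from 0.518 to 0.793 for Ftl1. Without day 1 replicate 2 the day 1 differences were 0.03 for Fth1 and 0.25 for Ftl1. Both chains are regulated largely at translation through iron-responsive elements in their mRNA, which an array of RNA does not read. The related genes Hephl1 and Fthl17a were not called on any day, and 4 further probe sets that carry Ftl1 together with other symbols were not used.

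Genes known to regulate hepcidin in the liver were then read in the same epithelium. Of 28 such genes, 3 rose and 1 fell on day 1, 3 rose and 1 fell on day 2, 2 rose and 1 fell on day 3, and 1 rose on day 4. These are 14.3%, 14.3%, 10.7% and 3.57% of the list, beside 3.94%, 2.57%, 2.96% and 0.908% of all genes. The median difference over the 28 genes was -0.00068, 0.03, -0.05 and 0.02, against -0.01, -0.02, -0.01 and 0.01 over all genes. The 4 genes called on day 1 were called also without day 1 replicate 2, with differences of 1.48 for Bmp6, 1.06 for Il6st, 0.76 for Bmp2 and -0.72 for Il22ra1. Bmp6, the bone morphogenetic protein whose loss in mice causes iron overload, read 7.46, 7.37 and 7.64 in control and 9.06, 8.87 and 8.87 on day 1. It then read 8.77, 8.81 and 8.58 on day 2, 8.19, 8.23 and 8.31 on day 3 and 8.26, 8.29 and 8.12 on day 4. Non-overlap with control was seen in 14.6%, 17.5%, 22.2% and 18.2% of all genes on days 1 to 4. All 12 RANKL arrays of Bmp6 lay above all controls. It rose by 1.45, 1.23, 0.75 and 0.73 on days 1 to 4 (SE 0.09; limma adjusted p = 6.93e-07, 2.65e-06, 0.000330 and 0.000758), and day 4 was 0.71 below day 1 (-0.71 ± 0.09, adjusted p = 0.00208; -0.75 without day 1 replicate 2, adjusted p = 0.00562). Bmp6 had its highest mean on day 1, a day on which Hamp overlapped with control.

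Il6st, which encodes gp130, the signalling subunit shared by receptors of interleukin 6 and its relatives, read 8.55, 8.78 and 8.77 in control and 9.15 to 9.92 over the 12 RANKL arrays. It rose by 0.90, 1.00 and 0.83 on days 1 to 3 (SE 0.15; limma adjusted p = 0.00355, 0.00206 and 0.00891), and on day 4 the difference was 0.67 (adjusted p = 0.0579). Its calls ended with median centring on days 1 (0.0843) and 3 (0.0666) and in a fit of control and day 1 alone (0.0548).

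Il22ra1, a subunit of the interleukin 22 receptor, was lower on days 1 to 3, by -0.70, -0.74 and -0.82 (SE 0.16; limma adjusted p = 0.0258, 0.0250 and 0.0156). The day 1 call ended without control replicate 1 (0.0502), control replicate 2 (0.0728), control replicate 3 (0.108) or RANKL day 1 replicate 1 (0.102). The day 2 call ended without control replicate 1 (0.0550), control replicate 2 (0.0651), control replicate 3 (0.119), RANKL day 2 replicate 1 (0.0850) or RANKL day 2 replicate 2 (0.129), and the day 3 call without control replicate 3 (0.0718) or RANKL day 3 replicate 2 (0.0676) or 3 (0.0843). Median centring also ended it on days 2 (0.0813) and 3 (0.0585). Bmp2, another hepcidin-inducing ligand, was called higher on days 1 and 2, by 0.63 and 0.69 (SE 0.15; adjusted p = 0.0288 and 0.0234). Its day 1 call ended without control replicate 1 (0.106), 2 (0.0679) or 3 (0.0655) or RANKL day 1 replicate 1 (0.0664) or 3 (0.102). Its day 2 call ended without control replicate 1 (0.104), 2 (0.0532) or 3 (0.0610) or RANKL day 2 replicate 1 (0.0720), 2 (0.0710) or 3 (0.0800). Both calls of Bmp2 also ended with the values as deposited (0.145 and 0.0709) and with median centring (0.269 and 0.139), and the day 1 call in a fit of control and day 1 alone (0.122).

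Among known target genes of the same signals, Id1, Smad7 and Socs3 were not called against control on any day. Id2 and Smad6, also in the list, were not called against control either. Id1, a target of bone morphogenetic proteins, had differences of -0.40, -0.12, -0.25 and -0.37 (SE 0.25), and Smad7, an inhibitor induced by the same pathway, had differences of -0.01, 0.01, -0.18 and -0.15 (SE 0.24). Socs3, a target of STAT3, had differences of -0.51, 0.36, -0.09 and -0.27 (SE 0.27). Limma adjusted p for Id1, Smad7 and Socs3 against control ran from 0.428 to 0.997 over the 4 days. With day 1 replicate 2 left out their day 1 differences were -0.53 for Id1, -0.16 for Smad7 and -0.44 for Socs3, none called (adjusted p from 0.338 to 0.781). The part of these signals in the levels of Hamp was not tested.

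**Figure D3:**
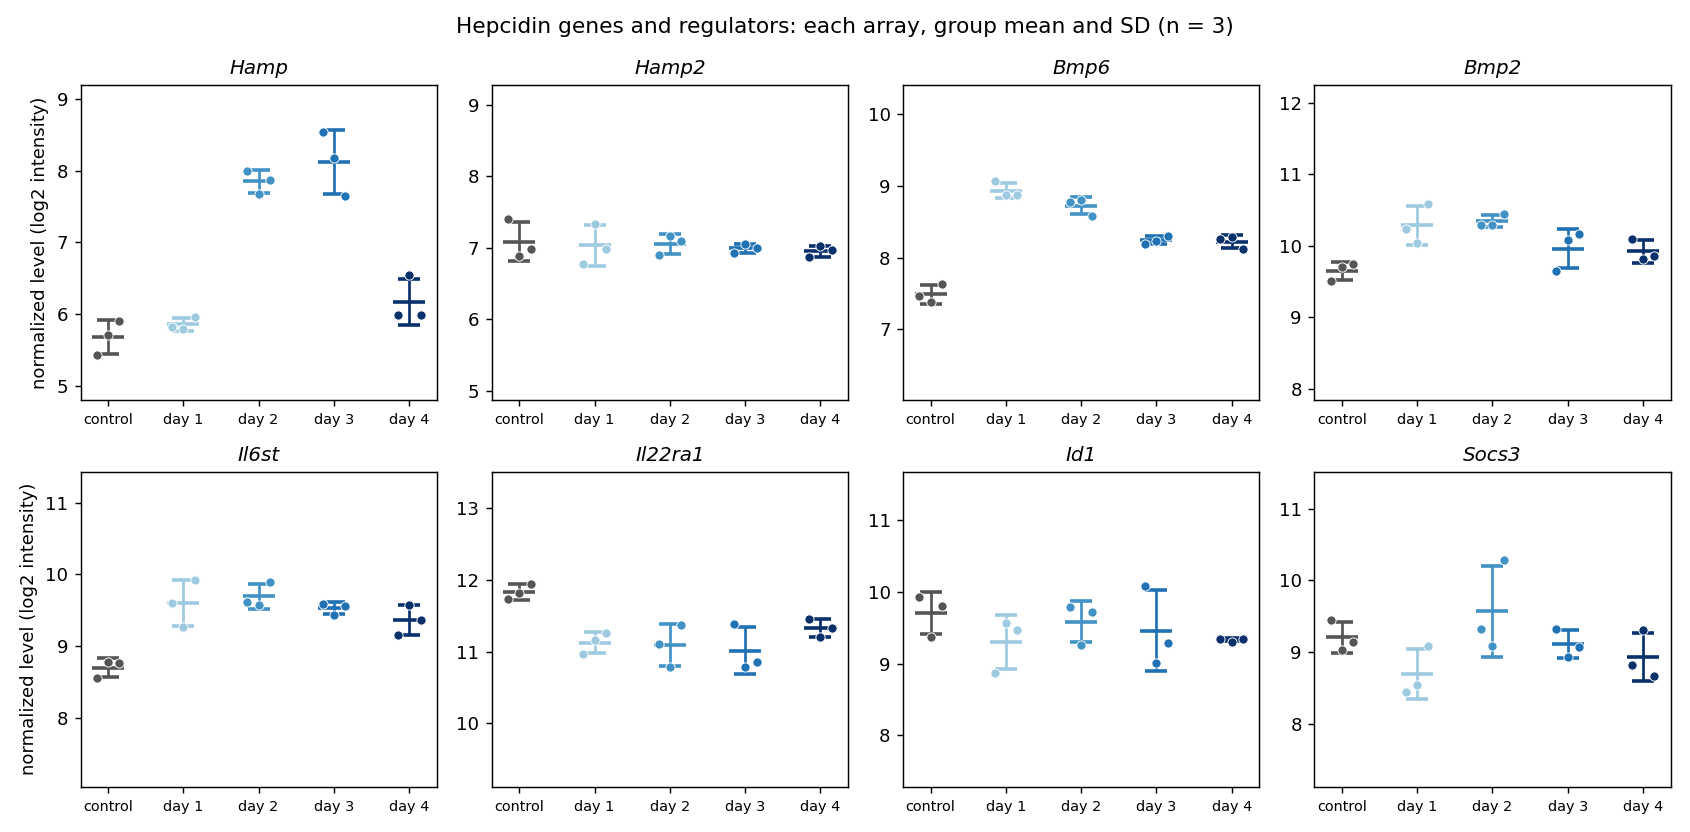
Normalized log2 intensity (vertical axis, equal span in every panel) of Hamp, its near copy Hamp2 and 6 genes of hepcidin regulation in control and on RANKL days 1 to 4 (horizontal axis). Points are arrays, and bars are the group mean and SD of 3 arrays. Hamp is high on days 2 and 3, whereas Bmp6 has its highest mean on day 1 and Hamp2 stays between 6.78 and 7.40.

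Over the wider pathway, 73 of 76 listed iron genes outside the set were measured, the hepcidin regulators among them. They gave 3 higher and 3 lower genes on day 1, 5 and 3 on day 2, 3 and 2 on day 3, and 1 higher on day 4. These are 8.22%, 11%, 6.85% and 1.37% of the 73, beside the 3.94%, 2.57%, 2.96% and 0.908% of all genes given above. The counts rested on single arrays. The 6 of day 1 became 2 without control replicate 3 and 3 without RANKL day 1 replicate 1. The 8 of day 2 became 4 without control replicate 1, 2 or 3 or RANKL day 2 replicate 1, and 5 without RANKL day 2 replicate 2 or 3. The 5 of day 3 became 3 without control replicate 3 or RANKL day 3 replicate 2 or 3, and the 1 of day 4 became 2 without RANKL day 1 replicate 2 or 3, RANKL day 3 replicate 3 or RANKL day 4 replicate 3.

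Among 12 other genes of iron uptake and reduction, Lcn2 moved most. It encodes lipocalin 2, which binds iron-loaded siderophores, and it read 7.0, 6.81 and 6.82 in control, 8.27, 7.36 and 8.10 on day 1, 9.28, 9.28 and 10.39 on day 2, 9.09, 10.55 and 10.40 on day 3 and 7.33, 8.01 and 7.78 on day 4. It rose by 2.77 ± 0.38 on day 2 (SE; limma adjusted p = 0.000945) and by 3.14 ± 0.38 on day 3 (adjusted p = 0.000400). The differences on days 1 and 4, 1.04 and 0.83, were not called (adjusted p = 0.180 and 0.506), and the day 1 difference was 1.31 (adjusted p = 0.0827) without day 1 replicate 2. Lcn2 and Hamp thus had their highest means on the same days, which for both genes was known from earlier results. Steap3, a ferrireductase of endosomes, was called lower on day 2 by -0.43 (adjusted p = 0.0302), a call that ended without control replicate 1 (0.0819), 2 (0.0585) or 3 (0.132) or RANKL day 2 replicate 1 (0.156) or 3 (0.0649), and with the values as deposited (0.0645).

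Slc25a37 encodes mitoferrin-1, which carries iron into mitochondria, and it fell on 3 days. It read 10.86, 10.83 and 11.13 in control, 10.16, 10.18 and 10.20 on day 1, 10.33, 10.18 and 9.82 on day 2, 10.16, 10.23 and 10.23 on day 3 and 10.87, 10.25 and 10.69 on day 4. Non-overlap with control was seen in 14.6%, 17.5% and 22.2% of all genes on days 1 to 3. For Slc25a37 all arrays of these days lay below all controls, while day 4 overlapped with them. The differences were -0.76, -0.83 and -0.74 on days 1 to 3 (SE 0.15; limma adjusted p = 0.0105, 0.00768 and 0.0178). The day 1 call ended without control replicate 3 (0.0575), and the day 3 call ended without control replicate 3 (0.0840) or RANKL day 3 replicate 1 (0.0523), 2 (0.0541) or 3 (0.0675) and with median centring (0.0567). Abcb10, which stabilises mitoferrin-1 in mouse erythroid cells, was called lower on day 1 by -0.54 (adjusted p = 0.0137), a call that ended without control replicate 3 (0.0649) or RANKL day 1 replicate 1 (0.0538) and in a fit of control and day 1 alone (0.0552). Without day 1 replicate 2 the day 1 differences were -0.76 for Slc25a37 and -0.50 for Abcb10, both called. No other of the 9 measured genes of mitochondrial iron was called on any day.

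Of 13 genes of heme handling, among them Hmox1, which encodes the heme-degrading oxygenase, 0 were called by limma on each of the 4 days. Of 11 genes of iron sensing and ferritin turnover, 1 was called, Hif1a on day 2 (0.76 ± 0.17, SE; adjusted p = 0.0343). That call ended without control replicate 1 (0.119), 2 (0.0574) or 3 (0.126), RANKL day 2 replicate 1 (0.0658), 2 (0.0855) or 3 (0.117) or RANKL day 4 replicate 1 (0.0501), and with the values as deposited (0.0600) or median centring (0.115).

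**Figure D4:**
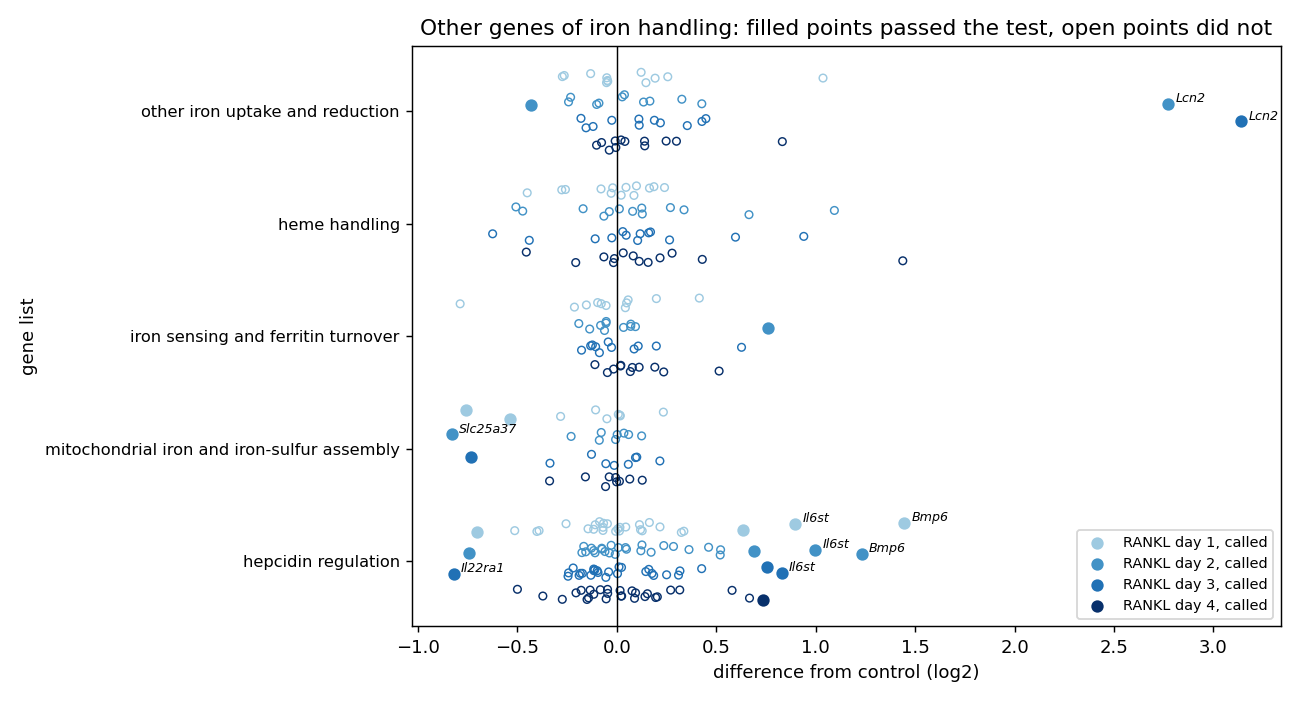
Difference from control on the log2 scale (horizontal axis) of 73 measured genes in 5 lists of iron handling (vertical axis) on RANKL days 1 to 4, shown in the order of days from top to bottom within a list. Filled points were called by limma and open points were not, and genes called with a difference beyond 0.8 are named. Lcn2 lies at 2.77 on day 2 and 3.14 on day 3, and no filled point belongs to heme handling.

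Markers of other cells were read beside these results, since ferroportin is also made by macrophages, hepcidin by hepatocytes and the transferrin receptor by erythroid cells. Of 9 hepatocyte markers, Ttr was called higher on each day (0.88, 0.84, 1.30 and 1.00) and no other was. Alb, the defining hepatocyte gene, read 5.95 to 6.14 on all arrays, and the summed intensity of the 9 was 745 to 798 in control and 872 to 1162 over the RANKL arrays. Of 14 macrophage and dendritic cell markers, Csf1r was called lower on day 1 (-0.36) and Itgam higher on day 2 (0.99), with sums of 3178 to 3847 in control and 2820 to 4196 under RANKL. None of the 5 measured of 12 erythroid markers was called, with sums of 544 to 589 in control and 515 to 687 under RANKL. The day 1 calls of Ttr and Csf1r ended without day 1 replicate 2 (0.80, adjusted p = 0.0516, and -0.38, adjusted p = 0.0566). The part of these markers in the levels of Hamp, Slc40a1 and Tfrc was not tested.

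The position along the gut was read in the same way, because iron uptake genes are highest in the duodenum. Of 9 proximal markers, S100g was called lower on days 1 and 3 (-0.34 on both) and Apoa4 higher on day 2 (0.71). Without day 1 replicate 2 the day 1 difference of S100g was -0.38 (limma adjusted p = 0.0203). Of 9 distal markers, Cubn (-0.78) and Amn (-0.83) were called lower on day 3 and none on the other days. The distal sum was 37543 to 42682 in control, 33898 to 39107 on day 1, 31069 to 36377 on day 2, 22732 to 35605 on day 3 and 29612 to 38246 on day 4. The proximal sum was 20766 to 26053 in control, 20482 to 29756 on day 1, 29361 to 30591 on day 2, 23315 to 29426 on day 3 and 24774 to 31915 on day 4. Of 10 absorptive enterocyte markers, Mep1a was lower on day 3 (-0.99). Their part in the levels of the iron genes was not tested.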

How the data were processed

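For 15 Affymetrix arrays the authors deposited linear intensities of 28853 probe sets, which ran from 25.95 to 24107. Per the submitters' processing notes the genome build is mm9, and how the authors summarised and normalized the intensities is not given in the sources used here. These deposited intensities were converted to log2 values (offset 0) and quantile normalized over all probe sets. Of the probe sets, 21789 carried 1 gene symbol, 1621 several and 5443 none in the annotation. A gene was read from its one-symbol probe set with the highest mean, which gave 19938 genes, without a filter on dim genes. limma 3.58.1 in R 4.3.3 fitted 1 mean per group to all 15 arrays, with 10 residual and 3.49 prior degrees of freedom. Two-sided p-values received Benjamini-Hochberg adjustment across all genes of a comparison, and calls were made below 0.05. The number of arrays limits the precision.

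The 8 genes and all lists were chosen with earlier results of these data known. Slc40a1 and Hamp against control are described only. All 8 genes were named, and of each list up to 4 called genes with the largest change on a day, the near copy Hamp2 and the related genes Hephl1 and Fthl17a, and the 5 genes closest in pattern to Slc40a1 and to Hamp. Some uncalled genes, such as Id1, Smad7 and Socs3, were named outside this rule. The alternatives were values as deposited, median centring, a log2 offset of 16, dropping the 40% dimmest genes, averaging probe sets, a trended and robust prior, the replicate number as a block, separate fits of the groups compared and the omission of single arrays. Promoters came from RefSeq for GRCm38.p6, and no gene coordinates of mm9 were used.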

Additional observations from a re-analysis of the deposited data

Results flagged for a closer look

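Tests of the difference between days set apart 4 results of 3 genes. The arrays of 10% of all genes did not overlap between days 1 and 2. This share was 13.4% between days 3 and 4 and 19.5% between days 1 and 4. Hamp was 1.99 ± 0.20 higher on day 2 than on day 1 (SE; limma adjusted p = 0.000659), with all 3 day 2 arrays above all 3 day 1 arrays, of which the latter lay near background. Hamp on day 4 minus day 3 was -1.96 ± 0.20 (adjusted p = 0.00412), again without overlap of the arrays, and it was not called in a fit of the 2 days alone (0.224). The high levels of days 2 and 3 are among the values on which Hamp was chosen, so these 2 p-values are not independent evidence. Tfrc was 0.98 ± 0.20 higher on day 4 than on day 1 (adjusted p = 0.0258), without overlap. This call ended in a fit of the 2 days alone (0.171) and on leaving out any of 4 single arrays. Slc11a2 was 0.60 ± 0.11 higher on day 4 than on day 1 (adjusted p = 0.0165), without overlap. The Slc11a2 call ended in a fit of the 2 days alone (0.121) and on leaving out any of 5 single arrays. The cause of the 4 flagged differences was not tested.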

How the results depend on the processing

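Beside the values that stand in the report, 9 alternatives were run, each array being left out in turn in 1 of them. In the alternatives other than the omission of single arrays, 621 values stayed the same, 29 lost a call, 1 gained one, 26 moved and 4 changed sign. Without single arrays these numbers were 1112, 98, 1, 60 and 19. A tested gene stayed the same if it kept its direction and side of the threshold. Slc40a1 and Hamp against control stayed the same if they moved by less than the SD, and a count if its size was similar. All changes of sign were of genes not called. Cybrd1 was 0.049 on day 1 and -0.029 on day 4 with the values as deposited and 0.0021 on day 1 with median centring, and Fth1 on day 4 was 0.0067 with median centring. Without single arrays, Cybrd1 ranged from -0.107 to 0.080 on day 1, -0.159 to 0.027 on day 3 and -0.097 to 0.090 on day 4. Fth1 ranged from -0.087 to 0.028 on day 1, -0.041 to 0.097 on day 2, -0.022 to 0.115 on day 3 and -0.095 to 0.019 on day 4, and Heph from -0.167 to 0.041 on day 1, -0.020 to 0.174 on day 3 and -0.0084 to 0.206 on day 4. Slc40a1 ranged from -2.32 to -1.41 over the 4 days, Tfrc from 1.00 to 1.36 on day 4 and from 0.82 to 1.18 for day 4 minus day 1, and Slc11a2 from 0.52 to 0.67 for day 4 minus day 1. In fits of only the groups compared the differences were as before, while limma adjusted p was 0.224 for Hamp on day 4 minus day 3 (-1.96), 0.171 for Tfrc on day 4 minus day 1 (0.98) and 0.121 for Slc11a2 on day 4 minus day 1 (0.60). Such fits hold fewer arrays. An offset of 16 gave 1.88 for Hamp on day 2. Of the 6 tested genes, 0 to 2 were called on day 4 without single arrays, and 1 to 2 by the F test, where the values as deposited and median centring gave 1. Of the 73 other iron genes, 2 to 7, 4 to 9, 3 to 6 and 1 to 2 were called on days 1 to 4 without single arrays. On day 1 the fit of only the groups compared gave 3, on day 2 the values as deposited and median centring gave 5, on day 3 median centring gave 2, and on day 4 leaving out the dimmest genes gave 2. With the replicate number as a block, 2 of the tested genes (Slc11a2, adjusted p = 0.0399, beside Tfrc) and 2 of the other iron genes were called on day 4. The labels name no pairing of the arrays by number. Of 30 same-numbered pairs of groups, 19 had correlated deviations above 0.1, with a median of 0.14 and a lowest value of -0.20. The median was -0.07 for pairs with other numbers. These values do not settle whether the numbers pair the arrays. Over all genes the counts of 785, 513, 590 and 181 on days 1 to 4 ranged from 445 to 1005, 283 to 721, 236 to 1189 and 94 to 338 without single arrays and from 269 to 1052, 311 to 635, 257 to 712 and 145 to 216 under the others. For day 2 minus day 1 the count of 40 ranged from 5 to 69, for day 4 minus day 3 the 3 ranged from 0 to 20, for day 3 minus day 2 it was 0 throughout and for day 4 minus day 1 the 263 ranged from 4 to 584. Signal near background limits the folds of Hamp and may limit those of Slc40a1.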

Other observations

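Targets of hypoxia-inducible factors and of NRF2, factors linked to iron through the oxygen-sensing and antioxidant responses, were counted as well. Of 12 hypoxia targets, 0 were higher and 2 lower on day 1, 2 higher and 1 lower on day 2, 3 higher on day 3 and 1 higher on day 4, by limma. These are 16.7%, 25%, 25% and 8.33% of the list, beside 3.94%, 2.57%, 2.96% and 0.908% of all genes. Without day 1 replicate 2, 0 were higher and 1 lower on day 1, as the call of Car9 ended (-0.47, limma adjusted p = 0.0799). The lower genes were Vegfa and Car9 on day 1 and Ndrg1 on day 2, and the higher ones beside Egln3 were Slc2a1 on days 2 and 3 and Pgk1 on day 3. Of these, the call of Slc2a1 on day 3 held without each array in turn, with adjusted p up to 0.0385, and the others ended without at least 1 array, with adjusted p up to 0.186 for Vegfa, 0.156 for Car9, 0.0677 for Ndrg1, 0.166 for Slc2a1 on day 2 and 0.113 for Pgk1. The values as deposited ended the calls of Car9 (0.0635) and Slc2a1 on day 2 (0.0553). Median centring ended those of Vegfa (0.0509), Car9 (0.0870), Slc2a1 on day 2 (0.101) and Pgk1 (0.0838), fits of only the groups compared those of Vegfa (0.153), Car9 (0.240) and Pgk1 (0.0885), and the replicate block that of Vegfa (0.0561). Egln3, an oxygen-dependent prolyl hydroxylase, read 10.25, 10.37 and 10.36 in control and 10.57 to 11.46 over the 12 RANKL arrays, and it rose by 0.93, 0.85 and 0.71 on days 2 to 4 (SE 0.11; adjusted p = 0.000226, 0.000652 and 0.00513). Of 7 measured NRF2 targets, 0, 1, 2 and 1 were higher on days 1 to 4, or 0%, 14.3%, 28.6% and 14.3%, and on day 1 the count was 1 without day 1 replicate 2. Gclc, a subunit of the enzyme that begins glutathione synthesis, rose by 1.10 on day 2 and 1.01 on day 3 (SE 0.20; adjusted p = 0.00863 and 0.0168), and without single arrays its adjusted p reached 0.0526 on day 2 and 0.0789 on day 3. In a fit of control and day 3 alone it was 0.0618. Gsta3, a glutathione transferase, rose by 1.31 on day 3 and 1.73 on day 4 (SE 0.25; adjusted p = 0.0111 and 0.00312), and the day 3 call ended without control replicate 3 (1.22, adjusted p = 0.0589).

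Of the 291 genes other than Tfrc whose group means spanned 1 or more, Gp2 had the pattern closest to Tfrc over the 15 arrays. Gp2 is the M cell receptor for bacterial FimH, and this likeness was looked for after the values were seen. Gp2 read 5.80 to 6.25 in control and on day 1 and 8.95 to 11.49 on days 2 to 4. Since the arrays fall into these 2 clusters, no pooled r is given. The deviations of the 2 genes from their group means had a Pearson r of 0.692 over the 15 arrays, given as a description.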
